A study of Mus musculus with 12 samples.

Results

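Endothelial identity genes are genes whose products give blood vessel lining cells their surface, their junctions and their transcription factor programme. The list held 35 genes, named by function, with earlier results of these data known, out of 18193 genes measured. Each gene was read by 1 probe set, the one with the highest mean over all 12 arrays, and 17 of the 35 genes had more than 1. No filter on low values was applied, so all 35 were tested.

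RNA came from whole yolk sacs of mouse embryos, which hold every cell type of that tissue. There were 4 groups of 3 arrays each: Hypb+/+ (wild type) and Hypb-/- (knockout) at embryonic day 9.0 (E9.0), and the same genotypes at E10.5. All carried the mixed 129Sv/C57BL/6 background, and the labels name no treatment, no Cre driver and no transgene. Each array read RNA of 4 yolk sacs pooled within a genotype, hybridised to Affymetrix mouse genome arrays after labelling of 5 micrograms, so no value belongs to 1 embryo. By the submitters' account, knockout embryos looked nearly normal at the earlier stage and were close to death at the later one. Hypb is the older name of Setd2, a histone methyltransferase that acts on transcribed genes.

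The yolk sac forms its first vessels as a plexus between an inner mesoderm and an outer visceral endoderm, and this plexus is remodelled into larger vessels over these stages. ETS factors such as Fli1 and Erg, and SoxF factors such as Sox17 and Sox18, bind regulatory sequence of many endothelial genes and act together in vessel growth. Several members are also made by other cells: Vwf by megakaryocytes, Fli1 and Pecam1 by blood cells, Sox7, Sox17 and Thbd by extraembryonic endoderm or trophoblast, and Lyve1 and Stab1 by macrophages. A list fixed for this purpose put 17 members as largely endothelium-restricted and the other 18 as also known from such cells.

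The values are log2 RMA values, so a difference of 1 is a doubling. The array medians lay between 5.27 and 5.34. RMA values carry no call of detection, and the number of arrays limits the precision. Setd2 read 7.69 in knockout against 8.98 in wild type at E9.0 (adjusted p = 0.00207, limma) and 7.88 against 8.71 at E10.5 (adjusted p = 0.00294). Its groups did not overlap at either stage. Whether this probe set lies in the deleted part is not known here. The arrays numbered 3 differed from the others in control probe sets. At E9.0 the BioC minus BioB difference was −0.04 and 0.04 on them against 1.40 to 1.58, and at E10.5 the dap 3' minus 5' difference was 1.87 and 1.85 against 1.23 to 1.44. Some results of the knockout comparisons are therefore also given for arrays 1 and 2 alone. Tissue markers were high throughout: group means of the visceral endoderm gene Afp lay between 13.79 and 14.17, and those of the embryonic globin Hbb-bh1 between 14.26 and 14.47.

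At E9.0 the endothelial genes of knockout yolk sacs showed no change past the threshold, which is a Benjamini-Hochberg adjusted p under 0.05 over all genes of a comparison. By limma 0 of 35 were called, where 1.18% of all genes were, and 3 members had an unadjusted p under 0.05. The log2 changes ran from −0.31 for Clec14a to 0.60 for Procr, with a median of 0.07 against −0.007 over all genes. The median was 0.173 without E9.0 knockout array 3, 0.12 without knockout array 1, 0.11 without wild type array 2 and 0.038 without wild type array 3, and 0.08 with arrays 1 and 2 alone. In 5 members, Robo4, Adgrf5, Ets2, Icam1 and Sox18, the knockout arrays all lay above the wild type arrays. That is 5 of 35, against 18% of all genes whose groups did not overlap.

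Robo4, a guidance receptor of endothelial cells that stabilises vessels, came nearest to the threshold at E9.0. It read 5.69, 5.74 and 5.91 on the wild type arrays and 6.31, 6.51 and 6.25 on the knockout arrays. The log2 change was 0.58 ± 0.15 (SE; adjusted p = 0.087). It passed with array weights (0.64, adjusted p = 0.00692) and when knockout array 3 of E10.5 was left out of the shared fit (0.58, adjusted p = 0.0272). With arrays 1 and 2 alone it was 0.695 (adjusted p = 0.06). Ets2, an ETS factor, read 10.02 to 10.14 in wild type and 10.34 to 10.46 in knockout, a change of 0.33 ± 0.13 (adjusted p = 0.328). Icam1, a leukocyte adhesion molecule, read 8.12 to 8.31 and 8.41 to 8.67, a change of 0.34 ± 0.16 (adjusted p = 0.451).

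At E10.5 knockout yolk sacs showed higher values of endothelial genes of several roles and a lower value of Vwf. By limma 9 of 35 members (25.7%) passed, where 7.28% of all genes did, and 18 had an unadjusted p under 0.05. Adgrf5, Adgrl4, Lyve1, Fli1, Cd93, Icam2, Robo4 and Pecam1 were higher, and Vwf was lower. The change was positive in 31 members and negative in 3, Stab2, Arhgef15 and Vwf, while Plvap was at 0.00. The median log2 change was 0.39, against −0.013 over all genes, of which 47.0% were positive. Groups did not overlap in 14 members, 13 of them with knockout higher, against 22.8% of all genes. In bulk tissue a larger share of endothelial cells and more RNA per endothelial cell cannot be told apart.

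The count at E10.5 depended on single arrays. It was 5 without E9.0 knockout array 1 or E9.0 wild type array 1, which enter only through the shared variance. It was 4 without E10.5 knockout array 1 or wild type array 3, 3 without E10.5 wild type array 2, and 14 without E10.5 knockout array 2. With arrays 1 and 2 alone it was 6: Adgrf5, Adgrl4, Vwf, Fli1, Lyve1 and Pecam1. The median change was 0.33, 0.31 and 0.45 in the differences between arrays of number 1, 2 and 3, positive in 31, 25 and 33 of 35 members. Adgrf5, Adgrl4 and Vwf stayed past the threshold under each alternative setting in which they were tested, the 12 that leave out 1 array included. With the E10.5 groups alone in the fit, Fli1 (adjusted p = 0.0736), Lyve1 (0.063), Cd93 (0.12), Icam2 (0.125), Robo4 (0.123) and Pecam1 (0.0595) lost their calls. Pecam1 also lost its call under median centring (0.0581) and the most variable probe set (0.0571). Cd93 did so under the mean of all probe sets (0.108), the most variable probe set (0.5) and array weights (0.0707).

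**Figure D1:**
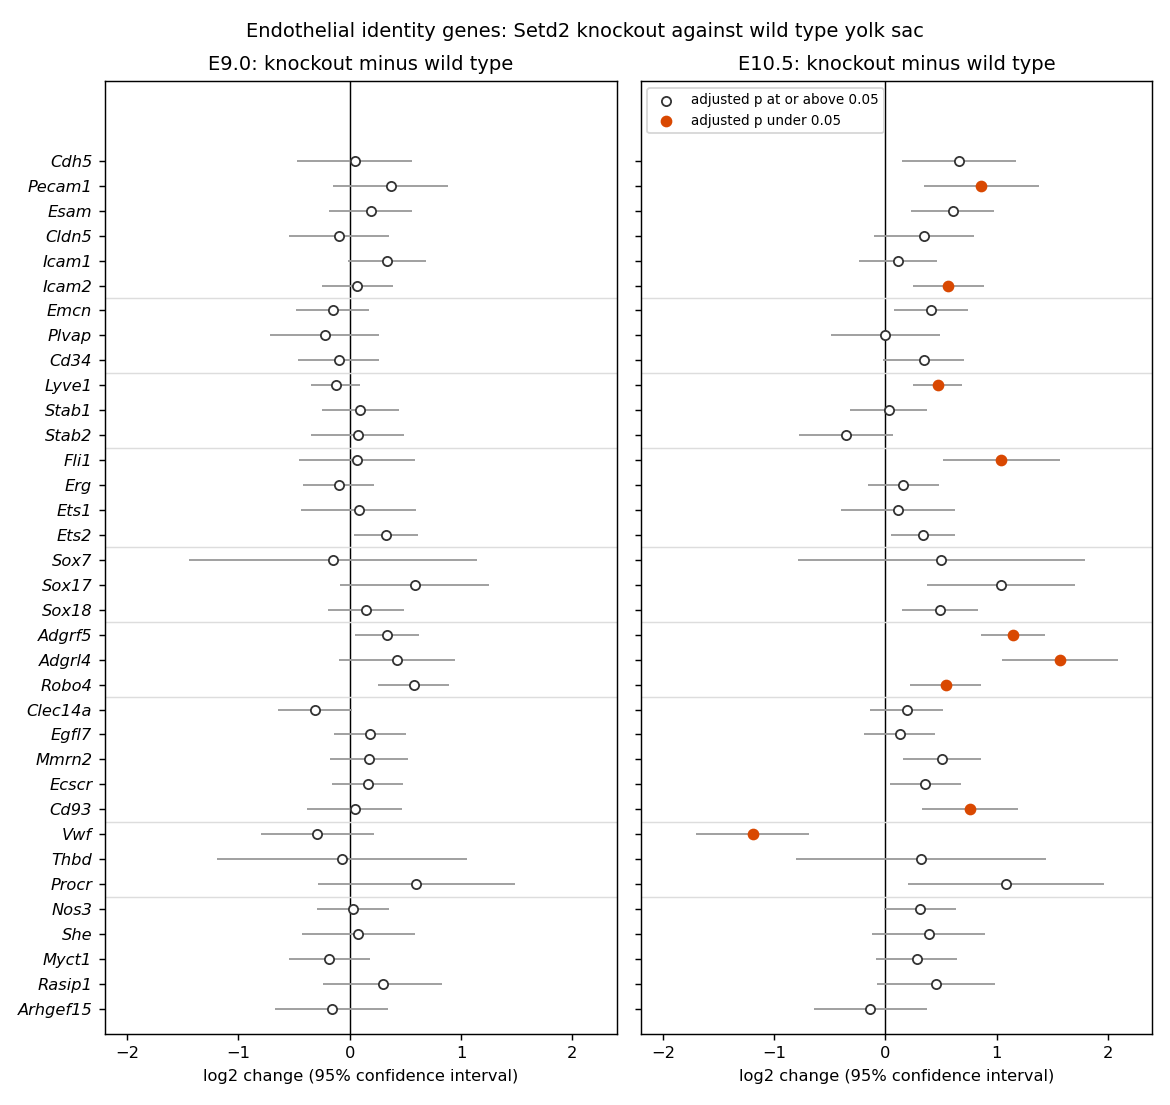
Log2 change of each of the 35 endothelial genes, knockout minus wild type, at E9.0 (left) and E10.5 (right), grouped by role, with 95% confidence intervals from the limma fit. Filled points passed adjusted p under 0.05: 0 genes at E9.0 and 9 at E10.5, of which Vwf is the one to the left of 0.

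The adhesion G protein-coupled receptors Adgrf5 and Adgrl4 and the guidance receptor Robo4 all passed at E10.5, where 7.28% of all genes did. The Robo4 call was not stable. This group of 3 joins receptors of different kinds and was made with earlier results of these data known. That all 3 passed is therefore not evidence about a role. Adgrf5 limits vessel leakiness and serves in lung surfactant control, and Adgrl4 is a receptor known from sprouting endothelium. Adgrf5 read 7.91, 7.53 and 7.61 on the wild type arrays and 9.07, 8.69 and 8.73 on the knockout arrays. The lowest knockout array lay above the highest wild type array by a wide margin, and the change was 1.15 ± 0.13 (SE), or 2.21-fold (adjusted p = 0.000333). Its other probe set gave 1.07 (adjusted p = 0.0199 over all probe sets).

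Adgrl4 read 6.21, 5.52 and 5.83 in wild type and 7.90, 7.09 and 7.29 in knockout at E10.5. Again no arrays overlapped, and the change of 1.57 ± 0.24, or 2.98-fold, was the largest of the 35 (adjusted p = 0.00203). Its other probe set gave 1.03 (adjusted p = 0.00713 over all probe sets). The same-number differences were alike: 1.16, 1.16 and 1.12 for Adgrf5, and 1.69, 1.57 and 1.46 for Adgrl4.

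Robo4 read 6.01, 6.15 and 5.99 in wild type and 6.28, 6.55 and 6.95 in knockout at E10.5. The groups did not overlap, but the gap between them was smaller than the spread of the wild type arrays, and the change was 0.54 ± 0.15 (adjusted p = 0.0434). Its adjusted p rose to between 0.0513 and 0.129 without any 1 of 9 arrays: E9.0 knockout 1 or 2, E9.0 wild type 1 or 2, E10.5 knockout 2 or 3, or any E10.5 wild type array. The change then lay between 0.365 and 0.59. With arrays 1 and 2 alone it was 0.335 (adjusted p = 0.142). The call was also lost under median centring (0.0809), further quantile normalisation (0.061), the most variable probe set of each gene (0.0571), a variance trend (0.0507) and a fit of the E10.5 groups alone (0.123), given as adjusted p.

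Promoters of these 3 genes are shown because they were the called members with an entry in the RefSeq promoter table (GRCm38.p6), 3 of 9, and 17 of all 35 members had one. Each line gives the 250 bases before a transcription start, 5′ to 3′ on the plus strand. Capitals mark exact matches, on either strand, to motifs searched by letters: CCGGAA and CAGGAA for ETS factors, ACAAT for SoxF, AGATAA for GATA and CAGCTG for an E-box. Adgrf5 has 2 starts in the table, at the ends of chr17:43360181-43360430 and chr17:43389216-43389465. The Adgrl4 window is chr3:151437632-151437881 and that of Robo4 is chr9:37401722-37401971.
Adgrf5 start 1: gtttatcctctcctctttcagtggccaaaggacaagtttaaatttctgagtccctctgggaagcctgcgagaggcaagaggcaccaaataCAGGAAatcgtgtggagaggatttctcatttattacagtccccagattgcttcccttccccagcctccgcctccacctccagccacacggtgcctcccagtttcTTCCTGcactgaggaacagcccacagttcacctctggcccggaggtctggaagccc
Adgrf5 start 2: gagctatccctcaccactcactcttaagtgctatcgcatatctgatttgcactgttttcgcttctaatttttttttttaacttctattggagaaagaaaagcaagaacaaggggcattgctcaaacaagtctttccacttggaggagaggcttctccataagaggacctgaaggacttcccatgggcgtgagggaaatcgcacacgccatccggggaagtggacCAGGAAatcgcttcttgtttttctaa
Adgrl4: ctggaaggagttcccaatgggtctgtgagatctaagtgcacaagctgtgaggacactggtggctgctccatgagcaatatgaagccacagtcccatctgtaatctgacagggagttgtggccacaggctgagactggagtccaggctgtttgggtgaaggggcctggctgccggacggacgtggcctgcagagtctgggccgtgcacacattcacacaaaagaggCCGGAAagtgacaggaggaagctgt
Robo4: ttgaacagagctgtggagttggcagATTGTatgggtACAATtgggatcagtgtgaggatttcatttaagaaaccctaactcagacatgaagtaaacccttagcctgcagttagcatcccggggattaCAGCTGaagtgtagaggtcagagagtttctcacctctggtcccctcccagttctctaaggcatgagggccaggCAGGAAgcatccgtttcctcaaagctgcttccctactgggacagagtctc
The first Adgrf5 window holds CAGGAA 160 bases before the start and, on the opposite strand, 56 bases before it. The second holds CAGGAA 26 bases before the start. The Adgrl4 window holds CCGGAA 25 bases before the start. The Robo4 window holds CAGGAA 50 bases, ACAAT 225 (opposite strand) and 214 bases, and CAGCTG 123 bases before the start.

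These motifs are short and common. Over the 32851 windows of 300 bases in the table, which add 50 bases after the start, CAGGAA is in 30.6%, ACAAT in 31.0%, CAGCTG in 16.3%, CCGGAA in 14.9% and AGATAA in 11.2%. Of the 17 members with an entry, 11 hold CAGGAA, 5 hold ACAAT, 3 hold CAGCTG, 2 hold CCGGAA and 2 hold AGATAA in at least 1 window. Some genes have several windows, 22 in all, so these gene counts are not on the same footing as the shares of windows, in which 13 of 22 hold CAGGAA. A match describes letters and is not a bound site.

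**Figure D2:**
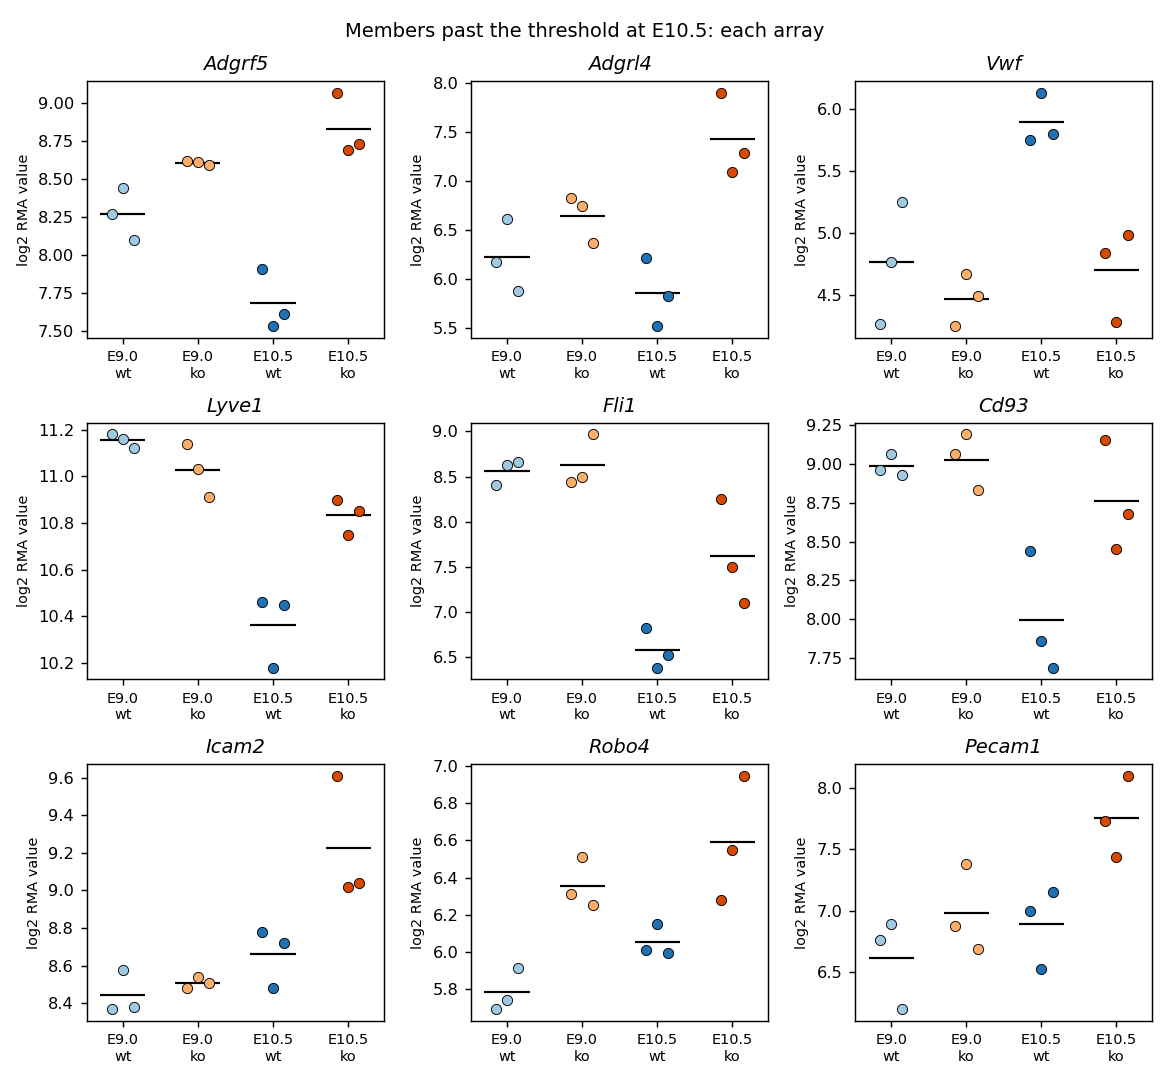
Log2 RMA value on each array (points, in the order of replicate numbers 1 to 3) and group mean (line) for the 9 members past the threshold at E10.5. The knockout and wild type points at E10.5 do not overlap in any of the 9 panels, and in the Vwf panel the wild type points are the higher ones.

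Of the junction and adhesion genes 2 of 6 passed at E10.5, both higher, and all 6 changes were positive. Pecam1, the platelet and endothelial adhesion molecule of cell borders, read 7.0, 6.53 and 7.15 in wild type and 7.73, 7.44 and 8.10 in knockout. The arrays did not overlap, and the change was 0.86 ± 0.24 (SE; adjusted p = 0.0453). The adjusted p lay between 0.0529 and 0.184 without any 1 of 8 arrays, with changes between 0.68 and 0.99: E9.0 knockout 1, E9.0 wild type 1 or 2, E10.5 knockout 1 or 3, or any E10.5 wild type array. At E9.0 Pecam1 read 6.76, 6.89 and 6.20 in wild type and 6.88, 7.38 and 6.69 in knockout, which overlapped (0.37, adjusted p = 0.622).

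Icam2, a constitutive adhesion ligand for leukocytes, read 8.78, 8.48 and 8.72 in wild type and 9.61, 9.02 and 9.04 in knockout at E10.5. Array 1 of the knockout was the highest, the groups did not overlap, and the change was 0.56 ± 0.15 (adjusted p = 0.037). Its adjusted p lay between 0.0501 and 0.152 without any 1 of 7 arrays, with changes between 0.37 and 0.62: E9.0 knockout 1 or 2, E9.0 wild type 1, E10.5 knockout 1, or any E10.5 wild type array.

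Cdh5, VE-cadherin, the defining junction protein of endothelium, did not pass. At E10.5 it read 5.92, 5.64 and 6.08 in wild type and 6.62, 5.89 and 7.12 in knockout. Array 2 of the knockout fell within the wild type range, and the change was 0.66 ± 0.24 (adjusted p = 0.124). Without that array the change was 0.99 (adjusted p = 0.00599). It was the lowest knockout array of E10.5 in 29 members, so leaving it out raises most changes. A pass gained in that way is not evidence of a change. No other array left out brought Cdh5 past the threshold. At E9.0 the values were 6.82, 6.93 and 6.66 in wild type and 6.67, 6.98 and 6.89 in knockout, a change of 0.04 ± 0.24 (adjusted p = 0.981).

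Esam, an adhesion molecule of tight junctions, read 7.69 to 8.25 in wild type and 8.38 to 8.66 in knockout at E10.5 without overlap (0.60 ± 0.17, adjusted p = 0.0541). It passed without E9.0 knockout array 3 (adjusted p = 0.04), E9.0 wild type array 3 (0.044) or E10.5 wild type array 1 (0.76, adjusted p = 0.0333). It also passed with a term for the arrays numbered 3 (0.0193) or the replicate number as a block (0.00632). Further quantile normalisation (0.049) and a filter to genes above the median level (0.049) let it pass too. With arrays 1 and 2 alone Esam did not pass (adjusted p = 0.106). Cldn5, the main claudin of endothelial tight junctions, changed by 0.35 (adjusted p = 0.402) and Icam1 by 0.11 (adjusted p = 0.787). Without E10.5 knockout array 2, an omission that raises most changes, the Cldn5 change was 0.64 (adjusted p = 0.0258). No other array left out made Cldn5 pass.

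Among surface receptors, Lyve1, a hyaluronan receptor of lymphatic and yolk sac endothelium, read 10.46, 10.18 and 10.45 in wild type and 10.90, 10.75 and 10.85 in knockout at E10.5. The groups did not overlap and the change was 0.47 ± 0.10 (adjusted p = 0.0147). It missed the threshold without E10.5 knockout array 1 (0.44, adjusted p = 0.0612) or wild type array 2 (0.38, adjusted p = 0.0689). The same held with the E10.5 groups alone in the fit (adjusted p = 0.063). The scavenger receptor Stab1, known from macrophages and sinusoids, changed by 0.03 (adjusted p = 0.947). Stab2, a hyaluronan-clearing receptor of sinusoidal endothelium, read 8.12 to 8.43 in wild type and 7.61 to 8.14 in knockout (−0.35 ± 0.19, adjusted p = 0.346).

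Cd93, a C-type lectin-like receptor that binds the matrix protein Mmrn2, read 8.44, 7.86 and 7.69 in wild type and 9.15, 8.45 and 8.68 in knockout at E10.5. The lowest knockout array lay just above the highest wild type array, and the change was 0.76 ± 0.20 (adjusted p = 0.0361). Its adjusted p lay between 0.0503 and 0.145 without any 1 of 6 arrays, with changes between 0.57 and 0.76: E9.0 knockout 1, E9.0 wild type 1 or 2, or E10.5 knockout 1, wild type 2 or wild type 3. Its 4 other probe sets gave 0.62, 0.35, 0.21 and 0.04, none past the threshold over all probe sets. Mmrn2 itself read 6.82 to 7.22 and 7.18 to 7.62, which overlapped (0.51 ± 0.16, adjusted p = 0.0833). Of the arrays left out, only E10.5 knockout array 2 made Mmrn2 pass (0.66, adjusted p = 0.0336), and that omission raises most changes.

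The other members of this group changed less. Clec14a, a second lectin-like partner of Mmrn2, changed by 0.19 (adjusted p = 0.564), and its other probe set by −0.18. The secreted vessel protein Egfl7 changed by 0.13 (adjusted p = 0.728), with 4 probe sets between 0.07 and 0.15. Ecscr, a regulator of endothelial motility and survival, read 7.99 to 8.42 in wild type and 8.45 to 8.71 in knockout without overlap (0.36 ± 0.15, adjusted p = 0.19). Of the sialomucins, Emcn read 8.24, 8.01 and 8.19 against 8.57, 8.51 and 8.59, also without overlap (0.41 ± 0.15, adjusted p = 0.139). Cd34 changed by 0.34 (adjusted p = 0.282). Plvap, which forms the diaphragms of fenestrae, gave −0.32, −0.39 and 0.71 in the same-number differences, which average to 0.00.

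Of the 4 ETS factors Fli1 passed at E10.5. It read 6.82, 6.38 and 6.52 in wild type and 8.25, 7.5 and 7.10 in knockout. All knockout arrays lay above the wild type arrays but spread over more than 1 log2 unit, and the change was 1.04 ± 0.24 (SE), or 2.06-fold (adjusted p = 0.0207). It missed the threshold without E10.5 knockout array 1 (0.73, adjusted p = 0.0565), wild type array 2 (0.95, adjusted p = 0.0907) or wild type array 3 (1.02, adjusted p = 0.0638). The same held with the E10.5 groups alone in the fit (adjusted p = 0.0736). The second Fli1 probe set gave 0.38 (adjusted p = 0.486 over all probe sets), so the size of the rise was not the same in both readings of the gene. At E9.0 Fli1 read 8.41, 8.63 and 8.66 in wild type and 8.44, 8.49 and 8.97 in knockout (0.07, adjusted p = 0.97).

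Erg, the ETS factor most tied to mature endothelium, read 6.16, 5.97 and 6.10 in wild type and 6.42, 6.04 and 6.25 in knockout at E10.5. The groups overlapped and the change was 0.16 ± 0.15 with a 95% interval from −0.16 to 0.48 (adjusted p = 0.632). Its other probe set gave −0.07. At E9.0 Erg read 6.15, 6.35 and 6.21 in wild type and 6.11, 6.46 and 5.84 in knockout (−0.10, adjusted p = 0.884). Ets1 changed by 0.11 (adjusted p = 0.856) and Ets2 by 0.34 (adjusted p = 0.164) at E10.5. Without knockout array 2, an omission that raises most changes, the Ets2 change was 0.51 (adjusted p = 0.011). No other array left out made Ets2 pass at E10.5.

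No SoxF factor passed at E10.5, and all 3 changes were positive. Sox17, which acts in arterial endothelium and in endoderm, read 7.67, 6.98 and 7.18 in wild type and 8.71, 8.13 and 8.11 in knockout. The groups did not overlap, and the change was 1.04 ± 0.31 (adjusted p = 0.0626), with 0.86 from the other probe set. It passed without E9.0 knockout array 2 (adjusted p = 0.0422) or E9.0 knockout array 3 (adjusted p = 0.0156). It also passed with the E10.5 groups alone in the fit (0.0375) and with the replicate number as a block (0.0362). With arrays 1 and 2 alone it did not (adjusted p = 0.0511). Sox18 read 7.65 to 8.15 and 8.0 to 8.58 (0.49 ± 0.16, adjusted p = 0.0868). Of the arrays left out, only E10.5 knockout array 2 made Sox18 pass (0.67, adjusted p = 0.0139), and that omission raises most changes. Sox7 changed by 0.50 ± 0.60 (adjusted p = 0.73).

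Vwf, the platelet-binding glycoprotein that endothelium and megakaryocytes store, went the other way. It read 5.75, 6.13 and 5.80 in wild type and 4.84, 4.28 and 4.98 in knockout at E10.5. Every knockout array lay below every wild type array, and Vwf fell by 1.19 ± 0.23 (SE), or 2.29-fold (adjusted p = 0.0088). At E9.0 it read 4.27, 4.77 and 5.25 in wild type and 4.25, 4.67 and 4.49 in knockout (−0.29, adjusted p = 0.721). Its 12-array mean of 4.96 lay below the median gene mean of 6.52, so it was a dim probe set.

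Megakaryocyte markers stood beside this fall. Of 7 measured at E10.5, 6 had negative changes and 1 passed, the platelet chemokine Ppbp, which fell by 1.98 (adjusted p = 0.000241). The mean level of these 7 genes ranged from 6.94 to 7.21 over the knockout arrays and from 7.35 to 7.69 over the wild type arrays. Their median change was only −0.15, and Ppbp weighs heavily on these means. The defining platelet receptor genes Gp9 and Gp1bb changed by −0.15 and 0.04 and Itga2b by −0.11, none past the threshold. The part of megakaryocytes in the Vwf result was not tested.

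The anticoagulant receptors of this role group, Thbd and Procr, did not pass at E10.5. Procr, the endothelial protein C receptor, read 6.70, 6.72 and 6.00 in wild type and 8.26, 7.01 and 7.40 in knockout without overlap (1.08 ± 0.41, adjusted p = 0.145). Thbd, thrombomodulin, changed by 0.32 ± 0.52 (adjusted p = 0.811). None of the 5 signalling and GTPase genes passed: Nos3, endothelial nitric oxide synthase, changed by 0.31, the adaptor She by 0.39, Myct1 by 0.28, the vessel lumen gene Rasip1 by 0.45 and the exchange factor Arhgef15 by −0.14. Without E10.5 knockout array 2, an omission that raises most changes, Rasip1 changed by 0.81 (adjusted p = 0.0126). No other array left out made Rasip1 pass.

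Of the 17 endothelium-restricted members 3 passed at E10.5 (17.6%, against 7.28% of all genes), Adgrf5, Adgrl4 and Robo4, of which Robo4 lost its call under most alternatives, with 14 positive changes and a median of 0.36. Of the other 18 members 6 passed (33.3%), 5 higher and 1 lower, with a median of 0.44. The difference between these shares was not tested. The mean over the 35 members, array by array, was 7.55, 7.23 and 7.35 in E10.5 wild type and 7.96, 7.5 and 7.90 in E10.5 knockout. Knockout array 2 overlapped the wild type range. It was the lowest of the 3 knockout arrays in 29 of 35 members, and wild type array 2 was the lowest of its group in 23. At E9.0 the means were 7.80, 7.87 and 7.73 in wild type and 7.81, 7.94 and 7.94 in knockout.

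**Figure D3:**
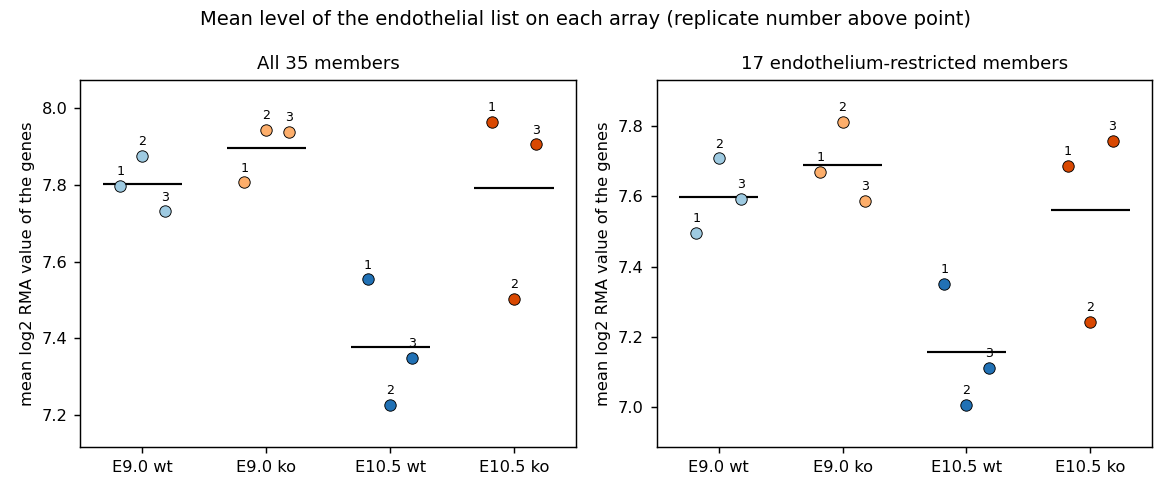
Mean log2 RMA value on each array over all 35 members (left) and over the 17 endothelium-restricted members (right), with the replicate number above each point and the group mean as a line. The E10.5 wild type arrays are the lowest group on both sides (7.23 to 7.55 on the left), and E10.5 knockout array 2 lies within their range.

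Markers of other cell types also differed at E10.5, and their part in the endothelial results was not tested. Of 9 mesenchyme and smooth muscle genes 4 were higher (Acta2 0.76, Tagln 1.02, Vim 0.76, Wt1 1.03), and their mean level was 9.07 to 9.58 in knockout and 8.75 to 8.95 in wild type. Of 10 macrophage and myeloid genes Csf1r, Cx3cr1, Tyrobp and Mpo were higher and Fcgr3 lower, with mean levels of 7.13 to 7.26 and 7.03 to 7.15. Of 6 heart and embryo genes Myl7 (3.21) and Tnnt2 (1.92) were higher, with mean levels of 4.47 to 5.91 and 3.71 to 3.84. Of 7 parietal endoderm and trophoblast genes Krt19 (1.11) and Gata3 (1.01) were higher, with mean levels of 9.0 to 9.45 and 8.37 to 8.54. Of 8 visceral endoderm genes Alb (−2.22) and Cubn (−0.36) were lower, with mean levels of 11.37 to 11.57 and 11.87 to 11.93. Their median change was −0.22, and Alb weighs heavily on these means. None of 6 blood progenitor genes passed, with 6 positive changes, 2 at an unadjusted p under 0.05 and mean levels of 5.76 to 5.98 and 5.36 to 5.61. None of 7 primitive erythroid genes passed, with 7 negative changes, 2 at an unadjusted p under 0.05 and mean levels of 10.79 to 11.49 and 11.40 to 11.56. RMA has no true zero, so none of these markers can be called absent.

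The wider endothelial programme was read from 35 further genes. At E10.5 4 of them passed (11.4%, near the 7.28% of all genes), with Hhex higher (0.68, adjusted p = 0.0128) and Calcrl (−1.06, adjusted p = 0.00282), Gja4 (−1.05, adjusted p = 0.0333) and Bmx (−0.44, adjusted p = 0.047) lower. Hhex is a homeobox factor of blood and vessel precursors, Calcrl the adrenomedullin receptor, Gja4 an arterial gap junction protein and Bmx an arterial kinase. Bmx was a dim probe set, with means of 3.04 in knockout and 3.48 in wild type, below the array medians of 5.27 to 5.34. The receptor genes that define endothelium did not pass: Kdr changed by 0.33 (adjusted p = 0.442), Tek by 0.15 (adjusted p = 0.697) and Tie1 by 0.37 (adjusted p = 0.591). The median over these 35 genes was 0.17, against −0.013 over all genes. At E9.0 1 passed, Gja4, which fell by 1.36 (adjusted p = 0.0317).

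With age, 13 endothelial genes of wild type yolk sacs fell and 2 rose, while 20 did not pass. From E9.0 to E10.5 15 of 35 passed (42.9%), where 22.2% of all genes passed. The median log2 change was −0.40 against 0.03 over all genes, and 22 members did not overlap between stages, against 40% of all genes. Stage and the day of processing cannot be told apart where no label gives that day.

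Fli1 fell most in wild type, by 1.99 ± 0.24 (SE), from 8.41, 8.63 and 8.66 to 6.82, 6.38 and 6.52 (adjusted p = 0.000136). The second Fli1 probe set fell by 0.68 (adjusted p = 0.0808 over all probe sets). Sox17 fell by 1.37 ± 0.31, from 8.99, 8.51 and 8.44 to 7.67, 6.98 and 7.18 (adjusted p = 0.00684). In neither gene did the stages overlap. Sox7 went from 8.67, 7.68 and 7.42 to 6.69, 5.87 and 6.39, also without overlap, and did not pass (−1.61 ± 0.60, adjusted p = 0.0741). It passed without E9.0 knockout array 3.

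Nos3 fell by 1.07 ± 0.15, from 7.10, 7.28 and 7.52 to 6.43, 5.97 and 6.28 (adjusted p = 0.000352). Cd93 (−0.99), Lyve1 (−0.79), Sox18 (−0.74) and Adgrf5 (−0.59) were also lower and, with Fli1, Sox17 and Nos3, passed without any 1 of the 12 arrays.

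The others that fell in wild type depended on single arrays. Cdh5 (−0.92, adjusted p = 0.0139) reached an adjusted p of up to 0.0583 without array 2 of either wild type group. Plvap (−0.87) reached 0.0566 without array 2 or 3 of either wild type group, and Mmrn2 (−0.59) reached 0.0859 without E9.0 wild type 1 or 2 or E10.5 wild type 2 or 3. Rasip1 (−0.86) reached 0.0874 without any E9.0 wild type array or E10.5 wild type 2 or 3. She (−0.73) reached 0.163 without E9.0 knockout 1, E9.0 wild type 1 or 2, or E10.5 wild type 2 or 3. Ets2 (−0.40) reached 0.151 and missed the threshold without any 1 of the 9 arrays that are not E10.5 knockouts. The count of 15 was 9 without array 2 of either wild type group.

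The 2 members that rose in wild type were Vwf and Emcn. Vwf rose by 1.13 ± 0.23 (adjusted p = 0.00427), from 4.27, 4.77 and 5.25 to 5.75, 6.13 and 5.80. Emcn, endomucin, an anti-adhesive coat protein of capillaries and veins, rose by 0.78 ± 0.15 (adjusted p = 0.00311), from 7.26, 7.57 and 7.28 to 8.24, 8.01 and 8.19. Neither gene's stages overlapped, and both passed without any 1 of the 12 arrays. Among 7 megakaryocyte markers 3 were higher with age too (Gp9, Pf4 and Ppbp). Over the 7, 4 changes were positive and 3 negative, with a median of 0.40. Their mean level was 6.01 to 6.59 at E9.0 and 7.35 to 7.69 at E10.5, and the highest change, 5.23, weighs heavily on it. Macrophage markers were higher in 9 of 10 (5.80 to 5.91, then 7.03 to 7.15), and 2 of 7 parietal endoderm and trophoblast markers, Lamb1 and Col4a1, were lower (8.72 to 9.35, then 8.37 to 8.54). Of 8 visceral endoderm genes 3 were higher and 1 lower, with 4 positive and 4 negative changes and a median of −0.007. The rise of their mean level (11.38 to 11.60, then 11.87 to 11.93) rested largely on the highest change, 3.82. Of 6 heart and embryo genes 2 were lower (3.98 to 4.86, then 3.71 to 3.84). Of 9 mesenchyme genes 1 was higher and 1 lower, 1 of 6 blood progenitor genes was higher, and none of 7 primitive erythroid genes passed, with 3 at an unadjusted p under 0.05. The part of these cells in the members' stage changes was not tested. Of the wider programme 17 of 35 passed (48.6%, against 22.2% of all genes), 15 lower and 2 higher (Apold1 and the dim Bmx). Among the lower were Kdr (−0.65), Flt1 (−0.65), Tek (−0.70) and Mef2c (−1.31).

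In knockout yolk sacs 9 of 35 members passed with age (25.7%), close to the 23.6% of all genes, with 5 higher, 4 lower and a median of −0.19. The sign of that median depended on 1 array. It was 0.02 without E10.5 knockout array 2, an omission that raises most changes, and negative in every other setting. It was −0.075 without E9.0 knockout array 3, −0.125 without E9.0 knockout array 2 and −0.32 without E10.5 knockout array 1. Groups did not overlap in 12 members, against 34.6% of all genes. Emcn rose by 1.34 ± 0.15 (adjusted p = 9.08e-05), from 6.88, 7.57 and 7.20 to 8.57, 8.51 and 8.59. Myct1, a target of endothelial ETS factors, rose by 0.92 ± 0.17 (adjusted p = 0.002), from 5.78, 5.74 and 5.31 to 6.72, 6.63 and 6.23. Its other 3 probe sets gave 0.14, 0.05 and 1.42, so they disagreed in size.

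Adgrl4 rose by 0.78 ± 0.24 in knockout (adjusted p = 0.033), from 6.83, 6.74 and 6.37 to 7.90, 7.09 and 7.29. Pecam1 rose by 0.77 (adjusted p = 0.032) and Icam2 by 0.71 (adjusted p = 0.00402). The Adgrl4 call was lost without E9.0 knockout 2 or 3 or E10.5 knockout 1 (adjusted p up to 0.127), and that of Pecam1 without arrays 1 or 3 of either knockout group (up to 0.12).

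Fli1 fell by 1.02 ± 0.24 in knockout (adjusted p = 0.00883), from 8.44, 8.49 and 8.97 to 8.25, 7.5 and 7.10. Nos3 fell by 0.79 ± 0.15 (adjusted p = 0.00243), from 7.23, 7.31 and 7.44 to 6.60, 6.30 and 6.72. Sox17 fell by 0.91 ± 0.31 (adjusted p = 0.0485), from 9.04, 8.63 and 10.02 to 8.71, 8.13 and 8.11. Of these 3, the Sox17 stages overlapped, and its call held without E9.0 knockout 2, E10.5 knockout 1 or E10.5 wild type 1 and was lost without any other 1 array (adjusted p up to 0.18). Ets2 (−0.39, adjusted p = 0.0489) kept its call only without E10.5 knockout 1 or 3. The Fli1 call was lost with arrays 1 and 2 alone. The count of 9 was 14 without E10.5 knockout array 3.

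Other probe sets gave further calls with age in knockout, over all probe sets. The dimmer Adgrf5 probe set fell by 0.77 (adjusted p = 0.0348), where the brighter one gave 0.22 (adjusted p = 0.293), so the readings of this gene differ in sign. One Cd93 probe set fell by 1.16 (adjusted p = 0.00585) against −0.27 from the brightest, and the other She probe set fell by 0.93 (adjusted p = 0.0209) against −0.42. Markers of other cell types moved in this comparison too, and their part was not tested. Higher were 10 of 10 macrophage, 3 of 7 megakaryocyte, 2 of 6 blood progenitor, 3 of 6 heart and embryo and 1 of 7 parietal endoderm and trophoblast genes. Of 9 mesenchyme genes 4 were higher and 1 lower, of 8 visceral endoderm genes 2 were higher and 4 lower, and of 7 primitive erythroid genes 3 were lower.

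**Figure D4:**
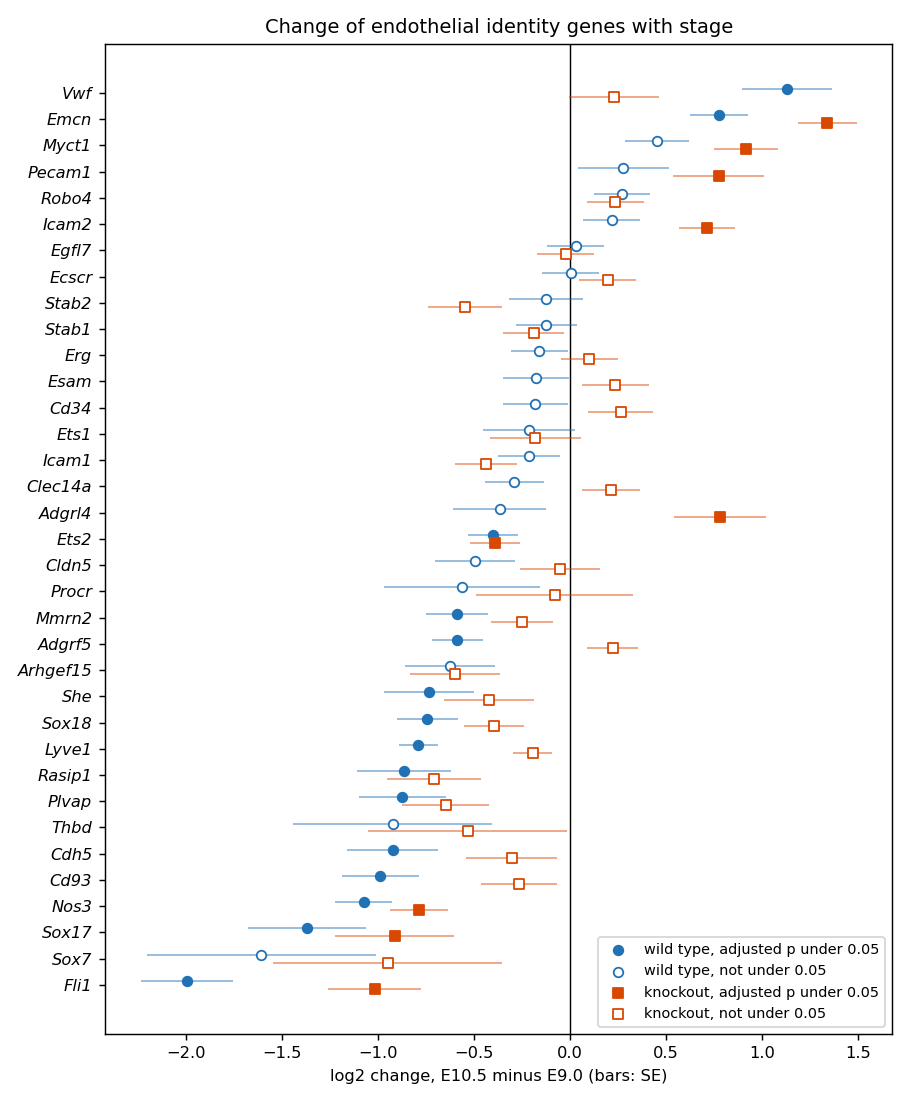
Log2 change from E9.0 to E10.5 (bars: SE) of each member in wild type (circles) and knockout (squares), ordered by the wild type change; filled symbols passed adjusted p under 0.05. In wild type 13 filled circles lie left of 0 and 2 right of it, and in knockout 4 filled squares lie left and 5 right.

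The stage comparison in wild type and the knockout comparison at E10.5 share the E10.5 wild type arrays, so a low value there lowers the first and raises the second. Their values are given side by side and not as support for each other. Adgrf5 had group means of 8.27 and 7.68 in wild type and 8.61 and 8.83 in knockout from E9.0 to E10.5. Lyve1 had 11.15 and 10.36 against 11.03 and 10.83, Cd93 had 8.98 and 8.0 against 9.03 and 8.76, and Fli1 had 8.57 and 6.57 against 8.63 and 7.62. In each of these 4 genes the E10.5 wild type mean was the lowest of the 4 group means. They are the members that passed both as lower with age in wild type and as higher in knockout at E10.5. A low E10.5 wild type mean was thus largely fixed by their choice. It was also the lowest in Adgrl4 (5.85), while in Pecam1 (6.62), Icam2 (8.44) and Robo4 (5.78) the E9.0 wild type mean was. Vwf had 4.76 and 5.89 in wild type and 4.47 and 4.70 in knockout, with the E10.5 wild type mean the highest.

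Whether the knockout effect itself differed between stages was tested as the difference of the effects. By limma 0 of 35 members passed, where 0.187% of all genes did, and 9 had an unadjusted p under 0.05. The nearest were Adgrf5 (0.81 ± 0.19, adjusted p = 0.124), Lyve1 (0.60 ± 0.14, adjusted p = 0.14) and Adgrl4 (1.15 ± 0.34, adjusted p = 0.276). The median difference was 0.39. The 9 calls at E10.5 are thus not shown to be particular to that stage.

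In Sox7, Sox17, Thbd and Procr the E9.0 values depended on single arrays, which was seen after the values were known. On E9.0 knockout array 3 they read 9.64, 10.02, 9.17 and 8.18, against 6.64 to 7.03, 8.63 to 9.04, 6.76 to 6.77 and 7.10 to 7.63 on the other E9.0 knockout arrays. E9.0 wild type array 1 was the highest of its group in all 4, at 8.67, 8.99, 8.34 and 7.92.

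On the same arrays the mean of 7 parietal endoderm and trophoblast markers was 9.97 on E9.0 knockout array 3, against 8.91 and 9.07 on the other E9.0 knockout arrays. It was 9.35 on E9.0 wild type array 1, against 8.72 and 9.24. The part of that tissue in these members' values was not tested. Without E9.0 knockout array 3 the knockout change at E9.0 went from −0.15 to −1.09 for Sox7, from −0.07 to −0.87 for Thbd, from 0.58 to 0.19 for Sox17 and from 0.60 to 0.33 for Procr. None of these passed. Without E9.0 wild type array 1 they were 0.22, 0.28, 0.76 and 1.04.

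**Figure D5:**
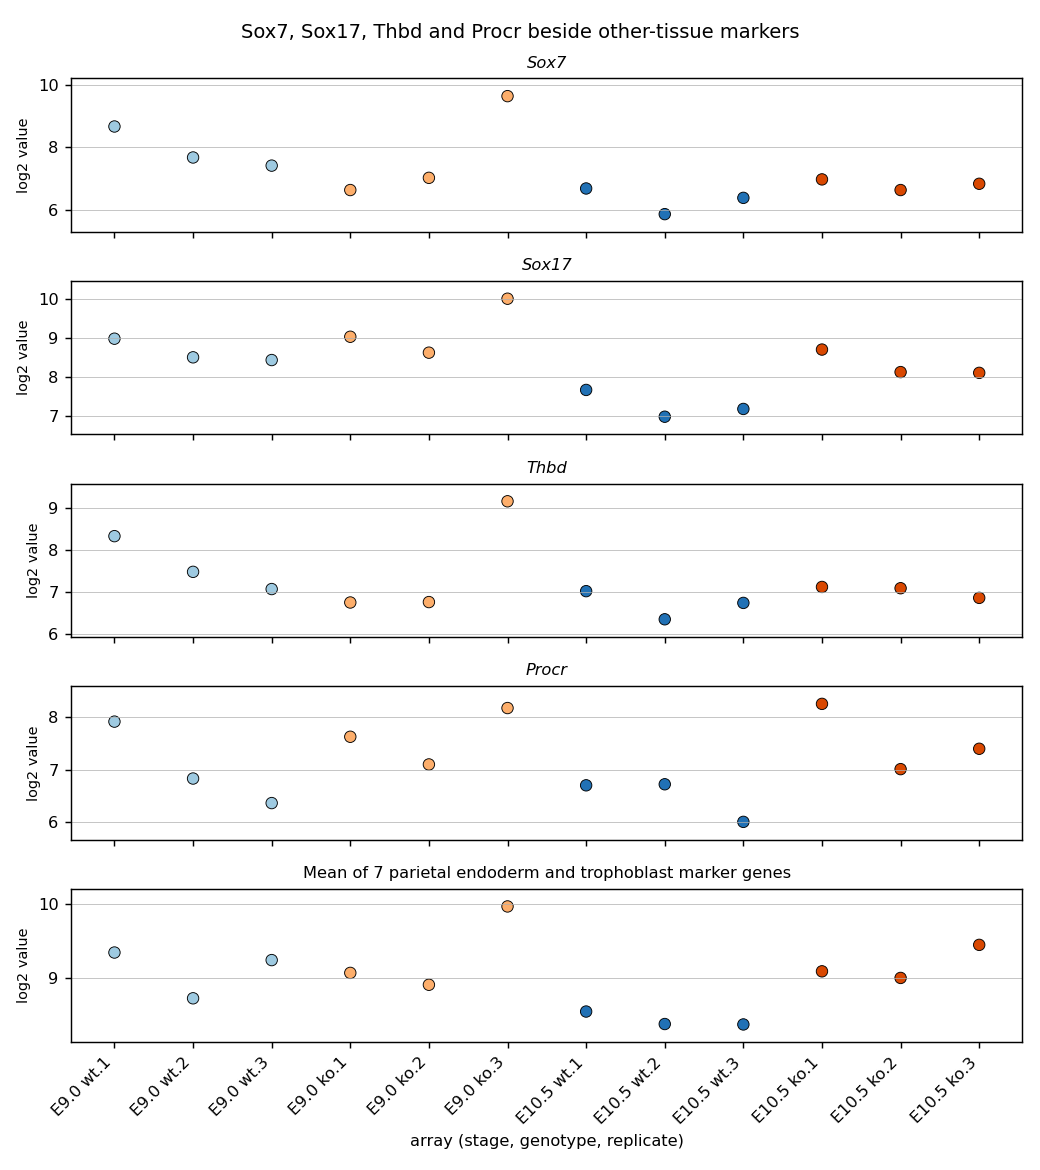
Log2 RMA value of Sox7, Sox17, Thbd and Procr on each of the 12 arrays, and in the lowest panel the mean of 7 parietal endoderm and trophoblast markers. E9.0 knockout array 3 is the highest array for Sox7 (9.64), Sox17 (10.02), Thbd (9.17) and the marker mean (9.97), and for Procr (8.18) it is exceeded by E10.5 knockout array 1 (8.26).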

How the data were processed

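Yolk sac RNA of 12 samples was read on Affymetrix arrays. The deposited values are on a log2 scale. RMA is the method that the submitters' processing notes name, without a version. Of 45101 probe sets, 64 controls were left out, and 34945 carried 1 gene symbol in the platform annotation. These gave 18193 genes, each by its probe set of highest mean.

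Group means were modelled jointly over the 12 arrays (limma 3.58.1 under R 4.3.3) with empirical Bayes moderation (8 residual and 4.56 prior degrees of freedom). The 5 comparisons were two-sided, with Benjamini-Hochberg adjustment over all genes and a threshold of 0.05. SE is that of the fitted log2 change. Replicates were separate pools per the labels, and p-values measure the spread between pools. Array values were given for members past the threshold in a knockout comparison, for Cdh5, Pecam1, Erg and Fli1, and for the 3 largest stage changes in each direction past the threshold.

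The members and gene lists were chosen with earlier results of these data known. To look for pairs, the deviations of each array from its group mean were correlated over all genes, knockout against wild type within a stage. For same-numbered arrays these correlations were all positive, at 0.034 to 0.401. They were not above 0.1 in every case, so numbers were not taken as pairs. For arrays of different number they had both signs, at −0.362 to 0.260. A pairing is not excluded by these values, and the fit with the replicate number as a block is given as an alternative. On simulated data for the E10.5 comparison (18193 genes) the fit recovered 66 of 66 changes of 2, 62 of 67 of 1 and 24 of 67 of 0.5 on the log2 scale. Alternatives were scaling, probe set choice, filter, variance model, block and array left out.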

Additional observations from a re-analysis of the deposited data

How the results depend on the processing

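At E10.5 the count of called members was 9 and lay between 3 and 14 when 1 array was left out, 4 with the compared groups alone in the fit, and 6 to 11 under the other alternatives without the replicate block. With the replicate number as a block, which the labels do not give as a pairing, it was 15, with the 9 among them. The others were Cdh5, Emcn, Esam, Mmrn2, She and Sox17. The block also called 2 members for the difference of the knockout effects, Adgrf5 and Adgrl4, against 0 without it. At E9.0 the count of 0 was 1 with array weights and 0 to 1 with 1 array left out. With age it was 9 to 17 in wild type (15) and 6 to 14 in knockout (9) with 1 array left out. Adgrf5 with age in knockout was −0.77 (adjusted p = 0.0333, limma) through its most variable probe set, against 0.22 through the brightest one; the cause was not tested. With 3 arrays a group, changes near 0.5 on the log2 scale were mostly not recovered in simulated data (24 of 67). Fewer genes changed there than the 1325 called at E10.5, which shifts the adjusted p, so this share need not hold for these data. A member that missed the threshold may still have changed by that much.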

Other observations

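E9.0 knockout array 2 held the highest value of all 12 arrays for 11 of the 35 members, and E10.5 wild type array 2 the lowest for 13. E10.5 knockout array 2 held the lowest for 8, although knockout arrays 1 and 3 of that stage held the highest for 8 and 5. On E10.5 knockout array 2 only 2 of 35 members lay above their group mean (median deviation −0.29), and without it 14 members were called at E10.5, 8 of the 9 among them. Leaving out so low an array raises most changes, so this higher count is not evidence of more changed members.

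Other probe sets could be read for 17 members, 30 in all. Their knockout change at E10.5 had the sign of the chosen probe set in 23 of 30, and in 8 of 8 for genes that were called. Clec14a, Erg, Arhgef15, Myct1 and Sox7 were the members in which at least 1 differed in sign.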
